A study of Mus musculus with 3 samples.

Results

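The cytosolic ribosomal protein genes were examined in single-cell RNA sequencing (scRNA-seq) of sorted layer 5 cells from P5 mouse medial prefrontal cortex (mPFC). Members were chosen by symbol, as rows named Rpl or Rps with a number and at most a short paralog suffix, together with *Rplp0*, *Rplp1*, *Rplp2* and *Rpsa*. This rule gave 82 of the 14933 genes in the table of filtered cells, of which 50 belong to the large and 32 to the small subunit. The 82 rows comprise 77 subunit genes, the 4 paralogs *Rpl22l1*, *Rpl36al*, *Rpl7l1* and *Rps27l*, and *Rpl6l*, which GENCODE M21 annotates as a processed pseudogene. The members lie on 19 chromosomes, with 14 of them on chromosome 7. The study left ribosomal genes out of its table of neuronal cells, and 0 of the 82 members are among the 7174 genes of that table, so raw unique molecular identifier (UMI) counts from the filtered-cell table were used.

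A cytosolic ribosome carries 1 copy of nearly every subunit protein, and its proteins are made in matched amounts from genes scattered over the genome. Many of their mRNAs begin with a terminal oligopyrimidine (TOP) tract, a C followed by a run of pyrimidines, through which growth signals acting via mTOR control their translation. Ribosomal protein mRNAs are short and very abundant, and in neurons they are found in dendrites and axons as well as in the soma.

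All 3 genotypes carried *Rbp4-cre* (Gensat line KL100), a transgene that drives Cre recombinase in layer 5 projection neurons, and the Ai14 tdTomato reporter, on a C57Bl6 background. Wild-type mice were Rbp4cre::tdTomato, *Tbr1* layer5 heterozygous mice were Tbr1f/+::Rbp4cre::tdTomato, and *Tbr1* layer5 homozygous mice were Tbr1f/f::Rbp4cre::tdTomato. Cre removes exons 2 and 3 of the floxed gene. Each genotype had 1 library from tdTomato+ cells, with no statement of how many mice went into it, so genotype and library cannot be told apart. No p-value is given for any comparison, and each ratio carries a 95% exact (Clopper-Pearson) interval that covers counting error only.

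The 17396 filtered cells fell into 3 groups, with counts given for wild-type, heterozygous and homozygous in that order here and below. Typical neuronal cells, which the authors kept for differential expression, numbered 1778, 5357 and 3935. Atypical cells, which the authors removed for reduced excitatory markers and described as rich in housekeeping genes, numbered 304, 107 and 462. Other cells, outside the neuronal table, numbered 2873, 1398 and 1182. The median typical cell held 1901, 1743 and 1375 UMIs. The 8 excitatory markers summed to 2118, 2534 and 3198 UMIs per 1000000 UMIs of the same cells (CPM) in typical cells, and all 8 were detected in each library. *Nrgn* alone supplied 1692, 2062 and 2722 CPM of these sums, while *Neurod6* stood at 201, 246 and 240 CPM and *Slc17a7* at 38.4, 46.9 and 38.5 CPM. The 6 astrocyte and radial glia markers were higher still, at 9697 to 10682 CPM, close to the 10432 to 11317 CPM of empty droplets (barcodes with at least 100 UMIs but too few to pass the cell filter). *Fabp7* and *Apoe* supplied most of this sum in typical cells, at 4775 to 5713 and 3968 to 4163 CPM. *Aldoc* stood at 602 to 670, *Slc1a3* at 116 to 147, *Gja1* at 46.3 to 56.5 and *Aqp4* at 31.9 to 41.2 CPM. Hemoglobin genes summed to 44.5 to 344 CPM in typical and 4902 to 9517 CPM in other cells. *Tbr1* itself was at 27.5, 30.7 and 22.4 CPM, from 101, 320 and 136 UMIs, but tags from the 3′ end lie outside the deleted exons and do not check the deletion. The libraries shared 37 to 58 cell barcodes per pair, at most 1.04% of the smaller library's cells.

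To see what the mRNA starts of the members have in common, RefSeq start sites (GRCm38.p6) were searched for a C followed by at least 5 pyrimidines. The sequence was read as in the mRNA, and the tract had to begin within 5 bases of the annotated start. Such a tract was present at 27 of 72 starts (37.5%), which belong to 61 members, against 10.2% of 32851 starts over all genes. The windows below hold 10 bases before and 20 bases from the start on and show the tract, where found, in capitals. They were picked to show long tracts, 2 members above wild-type in homozygous (*Rpl22l1* and *Rpl35*), and members low in both mutants or very abundant that lack the tract at the annotated start.
*Rpl13a* (chr7:45128726-45128755, minus strand): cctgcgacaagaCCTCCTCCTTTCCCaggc
*Rps6* (chr4:86857348-86857377, minus strand): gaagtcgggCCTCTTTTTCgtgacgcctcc
*Rpl35* (chr2:39005112-39005141, minus strand): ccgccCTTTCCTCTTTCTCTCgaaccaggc
*Rpl22l1* (chr3:28805498-28805527, plus strand): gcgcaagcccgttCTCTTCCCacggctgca
*Rps12* (chr10:23787190-23787219, minus strand): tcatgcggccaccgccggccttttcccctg
*Rpl39* (chrX:37085203-37085232, minus strand): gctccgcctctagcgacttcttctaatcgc
*Rpl41* (chr10:128549149-128549178, minus strand): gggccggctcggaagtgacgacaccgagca
Annotated starts can lie several bases from the start that a cell uses, so a missing tract says only that these letters are not in the window. In *Rps12*, for instance, a run of pyrimidines begins farther into the window than the 5 bases searched.

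The members together took up 21.7% of the UMIs of typical cells in wild-type, 15.9% in *Tbr1* layer5 heterozygous and 17.0% in *Tbr1* layer5 homozygous. The share was lower in both mutant libraries than in wild-type, and the homozygous library lay slightly above the heterozygous one. Cells of 1 library varied around these shares. The middle 90% of cells ran from 17.9% to 25.4% in wild-type, from 13.1% to 19.1% in heterozygous and from 14.0% to 20.2% in homozygous, so that single cells of the 3 libraries overlapped. The median cell held 416, 281 and 240 ribosomal protein UMIs, and after every cell was thinned to 1000 UMIs it held 217, 159 and 170. The split between the subunits hardly moved, with 59.6%, 60.1% and 60.2% of ribosomal protein UMIs coming from the large subunit. Mitochondrially encoded genes went the other way, at 10.7%, 15.7% and 12.8% of UMIs, and their part in the difference was assessed only by leaving them out of the total, as given with the ratios.

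**Figure D1:**
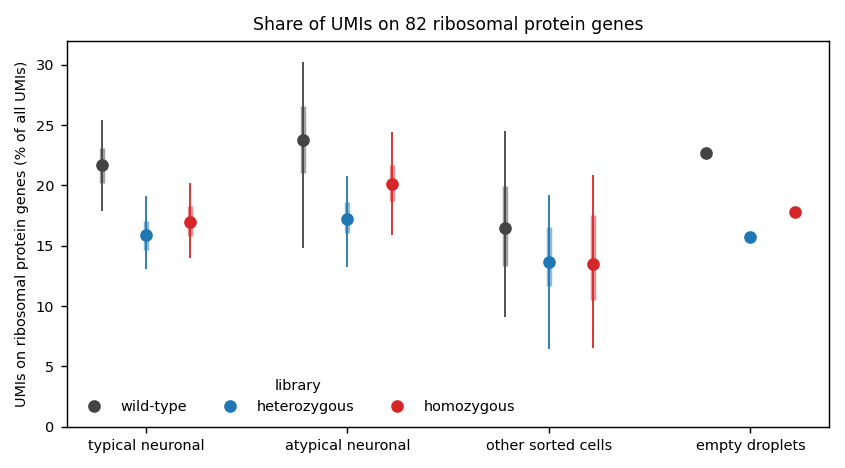
Share of UMIs from the 82 ribosomal protein genes (y axis, percent of all UMIs) in typical neuronal, atypical neuronal and other sorted cells and in empty droplets, colored by library. Points are shares of summed UMIs, thick bars the middle 50% of cells and thin bars the middle 90%, and the wild-type library stands highest in each set, for example at 21.7% against 15.9% and 17.0% in typical cells and at 22.7% against 15.7% and 17.8% in empty droplets.

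Levels differed widely between members, as CPM of 3′ tags, which count molecules and need no length correction. They are the levels of each member's own row and leave out the near-identical copies described below, which limits comparisons between members. The median member stood at 2258, 1685 and 1672 CPM, and 72, 63 and 62 members were above 1000 CPM. *Rpl41*, which encodes a very short basic protein of the large subunit, was the highest in each library at 16345, 12755 and 15907 CPM. *Rpl41* alone supplied 7.54%, 8.04% and 9.38% of all ribosomal protein UMIs. *Rps29*, a small-subunit protein, followed at 7837, 6225 and 7415 CPM. *Rpl13* of the large subunit came next at 6590, 4775 and 5284 CPM. *Rps19*, a gene mutated in Diamond-Blackfan anemia, stood at 4628, 4090 and 4642 CPM, and *Rps2*, whose protein lies near the mRNA entry channel, at 4729, 3916 and 3961 CPM. These 5 genes had no common pattern over genotypes. *Rpl41*, *Rps29* and *Rps19* were close to wild-type in the homozygous library and below it in the heterozygous one, while *Rpl13* and *Rps2* were below it in both, all 5 by less than the size rule of 0.5 (log2) used for the counts. At the other end of the range, *Rpl7l1* stood at 36.8, 39.2 and 40.5 CPM and *Rps27l* at 272, 214 and 225 CPM.

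**Figure D2:**
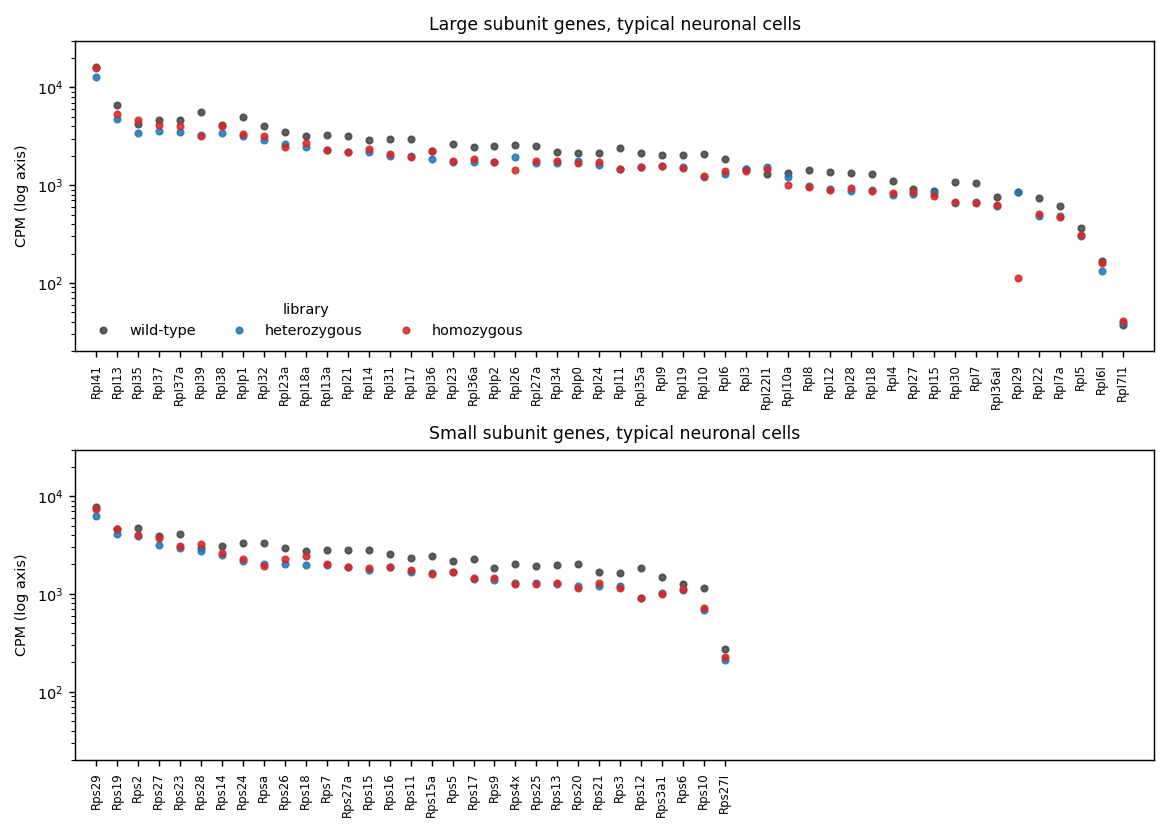
Level of single members in typical neuronal cells (y axis, CPM on a log scale), with large-subunit genes above and small-subunit genes below, in order of mean level and colored by library. *Rpl41* leads at 12755 to 16345 CPM, *Rpl7l1* is lowest at 36.8 to 40.5 CPM, and *Rpl29* has 1 library far below the others, at 114 CPM in homozygous.

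Most members had a ratio below 0 in each mutant over wild-type, which was the comparison the study made for other genes. Summed over members, the log2 ratio of CPM was -0.35 (95% interval -0.36 to -0.35) for homozygous over wild-type and -0.45 (-0.45 to -0.45) for heterozygous over wild-type. The median member stood at -0.41 and -0.46, against 0.08 and 0.06 over the 4261 genes whose mean over libraries reached 20 CPM, a level that all 82 members passed. In place of a test, a member was counted as lower or higher where its ratio reached 0.5 on the log2 scale. By this rule 33 members were lower in homozygous, where 3.26% of all genes were, and 34 were lower in heterozygous, where 3.83% were. With mitochondrial genes left out of the total, the heterozygous count was 22, against 2.42% of all genes. As mean raw UMIs per cell, with no scaling for the lower depth of the homozygous cells, the summed ratio was -0.77 in homozygous and -0.54 in heterozygous, and 71 members were lower in homozygous, where 28.5% of all genes were. By the same rule on CPM, 0 members were higher in either mutant, against 5.54% and 6.52% of all genes. Without the size limit, 76 members were below 0 in homozygous and 79 in heterozygous, against 39% and 41.2% of all genes. The interval lay wholly below 0 for 75 and 78 members, against 13.5% and 16.8% of all genes, and wholly above 0 for 3 and 1, against 26.2% and 26.8%. Of 8 marker lists of other cell types, 5 stood in the same order over the libraries as the ribosomal share (wild-type, then homozygous, then heterozygous). In typical cells of wild-type, heterozygous and homozygous the 4 hemoglobin genes summed to 344, 44.5 and 85.6 CPM, the 6 endothelial and mural markers to 94.3, 24.7 and 41.2 CPM, and the 5 markers of cycling cells to 155, 91.7 and 123 CPM. Microglial markers were at 34.1, 17.2 and 20.2 CPM and meningeal markers at 20.98, 7.10 and 7.74 CPM. The other 3 lists had another order, with astrocyte markers at 10508, 9697 and 10682 CPM, oligodendrocyte markers at 360, 333 and 293 CPM and inhibitory neuron markers at 89.4, 69.9 and 64.4 CPM. Their part in the genotype difference was not tested.

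Both subunits had medians below 0. The 50 large-subunit members had a median of -0.40 in homozygous and -0.42 in heterozygous, with 19 and 18 of them lower by at least 0.5. The 32 small-subunit members had medians of -0.45 and -0.49, with 14 and 16 lower. Both ratios use the same wild-type library, so they are not independent of each other. Side by side, 75 members were below 0 in both mutants, 30 were lower by at least 0.5 in both, and 2 were above 0 in both, against 31.1%, 1.95% and 50.9% of all genes. The summed log2 ratio of homozygous over heterozygous was 0.10 (0.09 to 0.10) and the median 0.04, against 0.01 over all genes, with 30 members below 0 where 46.6% of all genes were, and 69 members lay within 0.2 of 0, as did 79.6% of all genes. The direction of so small a ratio turned with the scaling, to a median of -0.01 without mitochondrial genes and of -0.29 as raw UMIs per cell. By the size rule 1 member was lower in homozygous than in heterozygous, where 0.868% of all genes were, and 0 were higher, where 1.08% were. A tract at the RefSeq start did not mark out the members with the lower ratios. The 26 members with a tract had medians of -0.38 in homozygous and -0.47 in heterozygous, and the 35 without had -0.41 and -0.44.

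**Figure D3:**
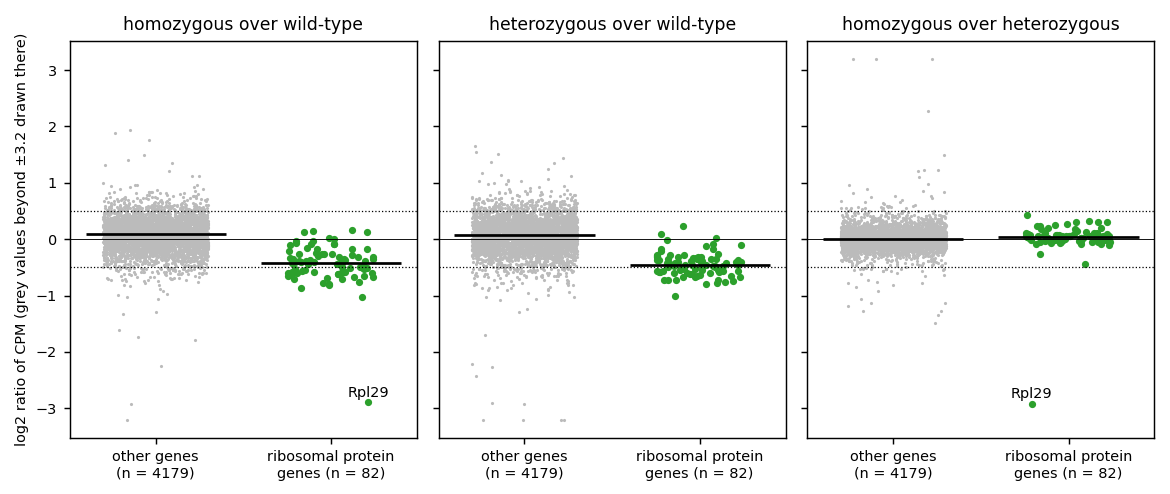
Log2 ratio of CPM in typical neuronal cells (y axis) for the other genes above the 20 CPM level (grey) and the 82 members (green), in 1 panel per comparison, with black bars at the medians and dotted lines at 0.5 and -0.5. The first 2 panels share the wild-type library. The members' medians are -0.41, -0.46 and 0.04, and *Rpl29* stands far below the other members in both panels with the homozygous library, at -2.89 and -2.92.

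Among the members lowest in both mutants was *Rps12*, a small-subunit protein of the beak region, at 1834 CPM in wild-type, 915 in heterozygous and 901 in homozygous. The log2 ratio to wild-type was -1.0 (-1.05 to -0.96) in heterozygous and -1.03 (-1.08 to -0.97) in homozygous. The level was thus about equal in the mutants and far below wild-type in both. *Rpl39*, a short protein that lines the peptide exit tunnel, stood at 5567, 3222 and 3211 CPM. Its ratio was -0.79 in both mutants. *Rps20*, a protein of the small-subunit head, stood at 2003, 1196 and 1139 CPM, with ratios of -0.74 in heterozygous and -0.81 in homozygous. *Rpl10*, which joins the large subunit late in its assembly, stood at 2098, 1223 and 1247 CPM, with ratios of -0.78 and -0.75. For each of these 4 genes the mutant libraries were nearer to each other than either was to wild-type.

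The laminin receptor and stalk genes were read singly. *Rpsa*, a small-subunit protein also known as the laminin receptor, stood at 3318, 2000 and 1925 CPM. Its ratio was -0.73 in heterozygous and -0.79 in homozygous. The stalk of the large subunit, which recruits translation factors, is built from *Rplp0*, *Rplp1* and *Rplp2*. *Rplp0*, the base of the stalk, stood at 2129, 1768 and 1666 CPM, with ratios of -0.27 and -0.35. *Rplp1* stood at 5018, 3169 and 3316 CPM, with ratios of -0.66 and -0.60. *Rplp2* stood at 2515, 1729 and 1745 CPM, with ratios of -0.54 and -0.53. *Rplp1* and *Rplp2* thus passed the size rule in both mutants and *Rplp0* in neither. *Rplp2* did so narrowly. With the UMIs of *Wdr89* added, a gene that shares sequence with it, its ratios were -0.498 in heterozygous and -0.486 in homozygous, short of the rule.

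Some members were nearer to the wild-type level than the median member, or above it, in 1 or both mutants. *Rpl22l1*, the paralog of *Rpl22*, stood at 1308, 1544 and 1462 CPM, with ratios of 0.24 (0.19 to 0.29) in heterozygous and 0.16 (0.11 to 0.21) in homozygous. *Rpl22* itself, an RNA-binding protein of the large subunit, stood at 734, 489 and 506 CPM, with ratios of -0.59 and -0.54. The pair therefore went opposite ways in both mutants, except that *Rpl22l1* was also below wild-type in homozygous (-0.26) as raw UMIs per cell. *Rps28*, which lies near the mRNA exit channel, stood at 2976, 2775 and 3267 CPM, slightly below wild-type in heterozygous (-0.10) and slightly above in homozygous (0.13). *Rpl35*, found at the exit of the peptide tunnel, stood at 4247, 3433 and 4651 CPM, with ratios of -0.31 and 0.13. Its ratio of 0.44 (0.42 to 0.46) for homozygous over heterozygous was the highest of the members. *Rpl36* stood at 2232, 1840 and 2260 CPM, *Rps19* differed between wild-type and homozygous by 0.00 (-0.02 to 0.03), and *Rpl41* was 0.32 higher in homozygous than in heterozygous. *Rpl3*, a protein near the peptidyl transferase center, stood at 1480, 1457 and 1392 CPM, with ratios of -0.02 (-0.07 to 0.02) and -0.09 (-0.14 to -0.04). *Rpl15*, also of the large subunit, stood at 880, 834 and 781 CPM, with ratios of -0.08 and -0.17. As raw UMIs per cell, homozygous over wild-type was below 0 for *Rps28* and *Rpl35* (-0.29 each), *Rpl36* (-0.40) and *Rps19* (-0.42), and homozygous over heterozygous was -0.01 for *Rpl41*.

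The other paralog pairs did not part in this way, except at very low level. *Rpl36a* stood at 2461, 1742 and 1844 CPM and its autosomal copy *Rpl36al* at 752, 606 and 629 CPM, with ratios of -0.50 and -0.42 for the former and -0.31 and -0.26 for the latter. *Rps27* stood at 3895, 3145 and 3689 CPM, with ratios of -0.31 and -0.08. *Rps27l*, known as a p53 target, had ratios of -0.35 and -0.27. *Rpl7* stood at 1051, 667 and 655 CPM, with ratios of -0.66 and -0.68. The ratios of *Rpl7l1* were 0.09 (-0.19 to 0.38) and 0.14 (-0.17 to 0.45), so its counts leave the direction undetermined. *Rps4x*, on the X chromosome, stood at 2020, 1284 and 1276 CPM, with ratios of -0.65 and -0.66. *Rpl3l*, *Rpl10l*, *Rpl39l* and *Rps4l* were not analysed here.

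*Rpl26* and *Rpl10a* were the members, after *Rpl29*, with the lowest homozygous over heterozygous ratios. *Rpl26*, a large-subunit protein that also binds p53 mRNA, stood at 2590, 1941 and 1425 CPM. Its ratio was -0.42 (-0.45 to -0.38) in heterozygous, -0.86 (-0.90 to -0.82) in homozygous and -0.45 (-0.48 to -0.41) between the mutants. *Rpl26* thus stood in descending order from wild-type through heterozygous to homozygous, where most members were nearly level between the mutants. The 15 measured genes within 1 Mb of *Rpl26* ranged from -0.25 to 0.14 in the same comparison. *Rpl10a* stood at 1318, 1217 and 1011 CPM, with -0.27 (-0.31 to -0.22) between the mutants, a ratio within the range of its own 15 measured neighbours (-0.38 to 0.32). The ends of that range came from far lower genes, with means of 74.8 and 36.1 CPM, whose intervals are not given.

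*Rpl29*, a large-subunit protein also described as heparin-binding, gave the largest difference of any member. It stood at 843 CPM in wild-type (3094 UMIs), 857 in heterozygous (8933 UMIs) and 114 in homozygous (690 UMIs). The log2 ratio was 0.02 (-0.03 to 0.08) for heterozygous over wild-type and -2.89 (-3.01 to -2.77) for homozygous over wild-type. At -2.92 (-3.03 to -2.80), homozygous over heterozygous was the lowest of all 4261 genes. The same gap stood in every set of barcodes. *Rpl29* was at 849, 934 and 141 CPM in atypical cells, at 524, 680 and 92.4 CPM in other cells, and at 764, 797 and 113 CPM in empty droplets. The 5 measured genes within 1 Mb of *Rpl29* ranged from -0.08 to 0.15 between the mutants.

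*Rpl29* has near-identical copies elsewhere in the genome, so its row was set beside theirs. GENCODE M21 holds 18 other genes whose transcripts share at least 100 exact windows of 50 bases with it, and 3 of those genes are in the table. The main one is *Gm10709*, a processed pseudogene at chr9:7751725-7752204 on the plus strand of mm10. *Rpl29* lies on the same chromosome at chr9:106429454-106431568. The coding sequences are identical at 476 of 480 bases (99.17%), and the substitutions, counted from the A of the start codon with the base of *Rpl29* first, are G205A, C300T, T423C and G457A. The last 150 coding bases without the stop codon, where tags from the 3′ end would come closest, are shown for both with the differing bases in capitals.
*Rpl29* (chr9:106431297-106431446, plus strand): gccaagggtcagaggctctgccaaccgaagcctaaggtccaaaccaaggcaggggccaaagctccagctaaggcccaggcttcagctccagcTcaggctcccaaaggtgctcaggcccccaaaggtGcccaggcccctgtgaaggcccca
*Gm10709* (chr9:7752055-7752204, plus strand): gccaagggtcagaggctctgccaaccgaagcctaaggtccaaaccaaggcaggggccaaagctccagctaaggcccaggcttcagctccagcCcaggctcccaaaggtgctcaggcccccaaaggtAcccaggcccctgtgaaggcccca
*Gm10709* stood at 940, 488 and 1135 CPM, so it was lowest where *Rpl29* was highest, and its homozygous over heterozygous ratio was 1.22 (1.16 to 1.27). *Rpl29* and its 3 copies together stood at 1794, 1351 and 1258 CPM. Of that sum *Rpl29* itself held 47.0%, 63.5% and 9.03%. The ratio of the sum was -0.41 (-0.45 to -0.37) in heterozygous, -0.51 (-0.56 to -0.46) in homozygous and -0.10 (-0.14 to -0.06) between the mutants. Summed with its copies, *Rpl29* was below wild-type in both mutants by about as much as the median member, and most of the gap between the mutants in its own row was absent from the sum. In empty droplets the sum was 1729, 1262 and 1250 CPM. Whether the bases at these positions differ between the mice, or why reads went to one row or the other, was not tested.

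**Figure D4:**
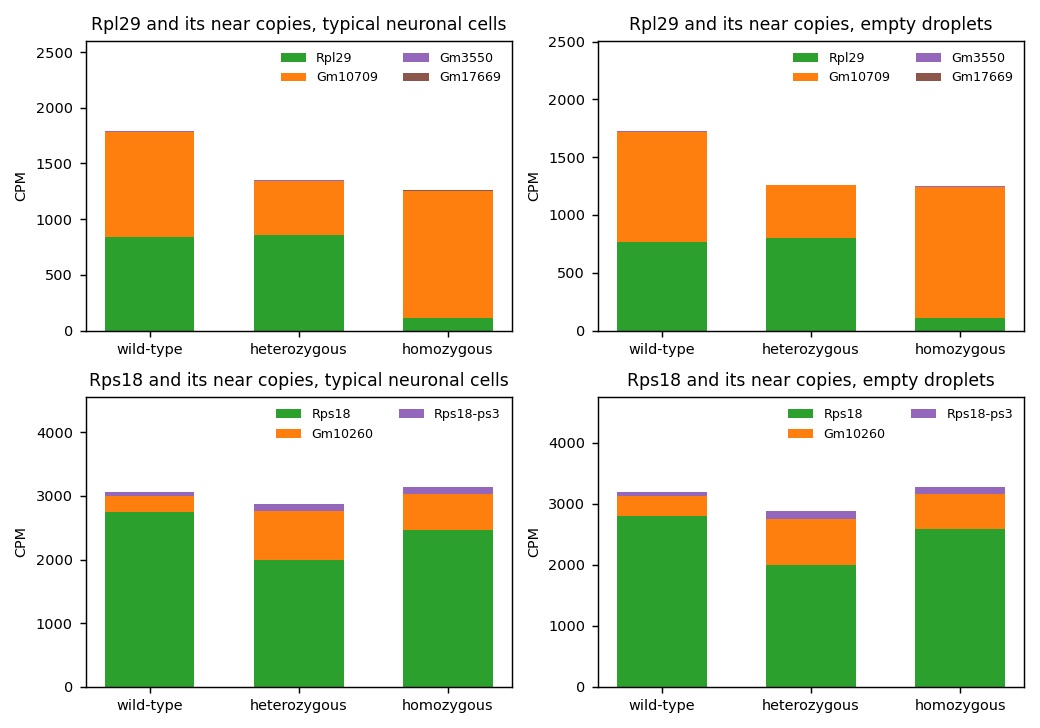
CPM of *Rpl29* (top) and *Rps18* (bottom) and of their near-identical copies, stacked by library, in typical neuronal cells (left) and empty droplets (right). In typical cells the *Rpl29* part drops from 857 CPM in heterozygous to 114 CPM in homozygous while the whole bar changes from 1351 to 1258 CPM, and the whole *Rps18* bars lie at 2868 to 3142 CPM.

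*Rps18*, a small-subunit protein near the decoding site, gave a smaller case of the same kind. Its row stood at 2741, 1995 and 2470 CPM, with ratios of -0.46 (-0.49 to -0.42) in heterozygous and -0.15 (-0.19 to -0.11) in homozygous. Its ratio between the mutants, 0.31 (0.28 to 0.34), lay within the range of its 19 measured neighbours (-0.53 to 0.42). The ends of that range came from far lower genes, with means of 38.7 and 28.6 CPM, whose intervals are not given. The *Rps18* copy *Gm10260* at chr13:97760072-97760632 on the minus strand stood at 260, 761 and 566 CPM, higher in both mutants by 1.55 and 1.12. The coding sequences match at 452 of 456 bases (99.12%), with T186C, A337C, G371A and G431A. The last 150 coding bases before the stop codon are shown with the differing bases in capitals, and those of *Rps18* span an intron.
*Rps18* (chr17:33952046-33952297, minus strand): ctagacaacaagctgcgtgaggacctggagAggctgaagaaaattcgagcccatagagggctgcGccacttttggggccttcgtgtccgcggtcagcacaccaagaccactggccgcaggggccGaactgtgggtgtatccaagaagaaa
*Gm10260* (chr13:97760133-97760282, minus strand): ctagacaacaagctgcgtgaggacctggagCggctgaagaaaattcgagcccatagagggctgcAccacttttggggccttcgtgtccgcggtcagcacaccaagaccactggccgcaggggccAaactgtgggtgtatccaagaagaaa
With *Gm10260* and *Rps18-ps3* added, *Rps18* stood at 3066, 2868 and 3142 CPM. The ratio of the sum was -0.10 (-0.13 to -0.06) in heterozygous and 0.04 (0.00 to 0.07) in homozygous, so the lower level of *Rps18* in heterozygous was for the most part gone from the sum. *Rps18* held 89.4%, 69.6% and 78.6% of it.

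Such copies are common among the members, but few of those in the table changed a ratio. In all, 72 members have a copy of this length in GENCODE M21 and 22 have at least 1 in the table, 32 rows in total. For members with no copy in the table, adding copies could change nothing, so theirs were not checked. With the copies added, the median ratio was -0.41 in homozygous and -0.46 in heterozygous, and 32 members were lower by at least 0.5 in each. Between the mutants 0 members then passed the size rule in either direction. The only members to move by over 0.1 in any of the 3 comparisons were *Rpl29* and *Rps18*. *Rps12* with *Rps12-ps3*, whose 384 aligned coding bases are the same as its own, stood at 2277, 1132 and 1164 CPM and had the lowest ratios of all, at -1.01 and -0.97.

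The lower ribosomal protein level of the mutant libraries was not particular to the typical cells. In atypical cells the summed ratio was -0.47 in heterozygous and -0.24 in homozygous, with 78 and 70 members below 0, against 57.8% and 52.5% of all genes. In other cells it was -0.27 and -0.29, with 74 and 73 members below 0, against 53% and 45.8%. In empty droplets it was -0.53 and -0.35, with 78 and 76 members below 0, against 31.4% and 32.2%. The wild-type library thus had the highest summed level in each set of barcodes, while the order of the mutants was not the same in each. The summed ratio of homozygous over heterozygous was 0.23 in atypical cells, where 11 members were below 0 against 42.4% of all genes. It was -0.02 in other cells, with 44 members below 0 against 43.3%, and 0.18 in empty droplets, with 9 below 0 against 58.4%. Empty droplets hold RNA released from many cells, and their ratios were as far below 0 as those of the typical cells. With the empty-droplet profile subtracted at 22.6%, 10.8% and 17.8% of each library's UMIs, the summed ratios in typical cells were -0.43 and -0.35. These percentages were the smallest of 6 estimates, each the level of a marker list in typical cells over its level in empty droplets. They came from microglial markers in heterozygous and endothelial and mural markers in the others, and the largest, from astrocyte markers, were 101%, 87.5% and 94.4%.

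Within a library, atypical cells had a higher share of ribosomal protein UMIs than typical cells, at 23.8%, 17.2% and 20.1%. The summed ratio of atypical over typical was 0.13 (0.13 to 0.14) in wild-type, 0.12 (0.10 to 0.13) in heterozygous and 0.25 (0.24 to 0.26) in homozygous. The median member stood at 0.18, 0.15 and 0.28, while the median over all genes was -0.02, -0.17 and -0.12. Members were higher in atypical cells in 70 cases in wild-type, 67 in heterozygous and 79 in homozygous, against 48.3%, 37.6% and 37.2% of all genes. By direction alone, 62 members were higher in all 3 libraries, against 14.8% of all genes, and 2 were lower, *Rpl39* and *Rps27l*, against 30.9%. The authors cut the atypical cells from these same cells by clustering on other genes, so the contrast is a description. Ribosomal protein genes are commonly counted among housekeeping genes, by whose high level the authors described these cells. Markers moved with it, since the excitatory list summed to 769, 2645 and 1479 CPM in atypical cells, lower than in typical cells in wild-type and homozygous. The heterozygous sum came mostly from *Nrgn*, at 2354 CPM, while *Neurod6* was lower in the atypical cells of each library, at 50.3, 46.2 and 55.0 CPM, and so was *Slc17a7*, at 11.8, 9.25 and 16.1 CPM. *Bcl11b*, on the same excitatory list, went the other way in each library, at 183, 217 and 299 CPM against 73.0, 59.0 and 76.4 in typical cells. Inhibitory neuron markers were higher in the atypical cells of each library, at 225, 134 and 145 CPM against 89.4, 69.9 and 64.4 in typical cells. Hemoglobin genes stood at 345, 60.1 and 997 CPM, against 344, 44.5 and 85.6. The part of these markers in the ratios was not tested.

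By the median over libraries *Rpl7* had the highest ratio of atypical over typical cells, at 0.67, 0.53 and 0.71. *Rps6*, the small-subunit protein phosphorylated by S6 kinase, followed at 0.61, 0.64 and 0.62. *Rpl3* was at 0.61, 0.56 and 0.63. These 3 genes were thus higher in atypical cells by a like amount in each library. At the other end, *Rpl39* stood at -0.19, -0.19 and -0.04, *Rps27l* at -0.03, -0.44 and -0.17, and *Rplp1* at -0.15, -0.13 and 0.03. The interval of *Rps27l* held 0 in each library, and those of *Rpl39* and *Rplp1* held 0 in homozygous.

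Other cells had the lowest shares, at 16.5%, 13.6% and 13.5%. The authors chose neuronal clusters in a first clustering, before ribosomal genes were taken out. They then filtered those clusters again by UMIs and genes per cell, and any cells dropped there are also among the other cells. How the other cells divide between these steps was not examined. Members could have entered the first clustering, and the contrast with typical cells is a description. The summed ratio of other over typical cells was -0.39 in wild-type, -0.22 in heterozygous and -0.33 in homozygous, with medians of -0.32, -0.16 and -0.24 where all genes had 0.19, 0.06 and 0.11. Only 19, 9 and 14 members were higher in other cells than in typical cells, against 60%, 56% and 57.4% of all genes. In all 3 libraries 62 members were lower, against 31.7% of all genes, and 9 were higher, against 47.2%. The other cells are a mix. Besides hemoglobin, their 6 microglial markers summed to 914 to 1035 CPM, against 17.2 to 34.1 in typical cells, and their 6 endothelial and mural markers to 697 to 1730 CPM, against 24.7 to 94.3. Their excitatory markers summed to 668, 1943 and 1304 CPM, against 2118, 2534 and 3198 in typical cells. Inhibitory markers stood at 419, 226 and 263 CPM and cycling markers at 1058, 449 and 539 CPM. The part of these cell types in the ratios was not tested. By the median over libraries *Rpl41* had the lowest ratio, at -1.01, -0.41 and -0.76. *Rps2* stood at -0.77, -0.52 and -0.70. *Rplp1* stood at -0.86, -0.39 and -0.65. All 3 were nearest to 0 in the heterozygous library. Of the members above 100 CPM, *Rps27l* had the highest median over libraries, at 0.48, 0.29 and 0.50, while the low *Rpl7l1* stood at 0.78, 0.49 and 0.56. *Rpl5*, which binds 5S ribosomal RNA and MDM2, stood at 0.21, 0.12 and 0.16, and *Rpl7* at 0.16, 0.11 and 0.14.

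Ratios between cell groups tended to be higher for longer members, with exceptions. *Rps2*, of 906 coding bases, was among the lowest in other over typical cells, and *Rps27l*, of 315, among the highest. Coding length, available for 81 members, was that of the longest coding sequence among a gene's GENCODE M21 transcripts, which need not be the main isoform. Its Spearman rho with the other over typical ratio was 0.58, 0.46 and 0.55. With the atypical over typical ratio it was 0.56, 0.42 and 0.43. Over the 4089 other genes with a coding length, rho was 0.20 to 0.26 for the former and -0.02 to 0.09 for the latter. These are descriptions across genes that share the same libraries. The 27 shortest members, of 138 to 399 coding bases, had median other over typical ratios of -0.51, -0.24 and -0.39, and the 27 longest, of 582 to 1257 bases, had 0.02, -0.06 and -0.07. In atypical over typical, the shortest stood at 0.08, 0.01 and 0.15 and the longest at 0.33, 0.18 and 0.34. Between genotypes in typical cells rho was 0.05 for heterozygous over wild-type, -0.13 for homozygous over wild-type and -0.43 for homozygous over heterozygous. Over the other genes it was -0.08, -0.11 and -0.03 in the same order. With mean CPM in typical cells, rho of coding length was -0.32 across members and -0.35 across the other genes.

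**Figure D5:**
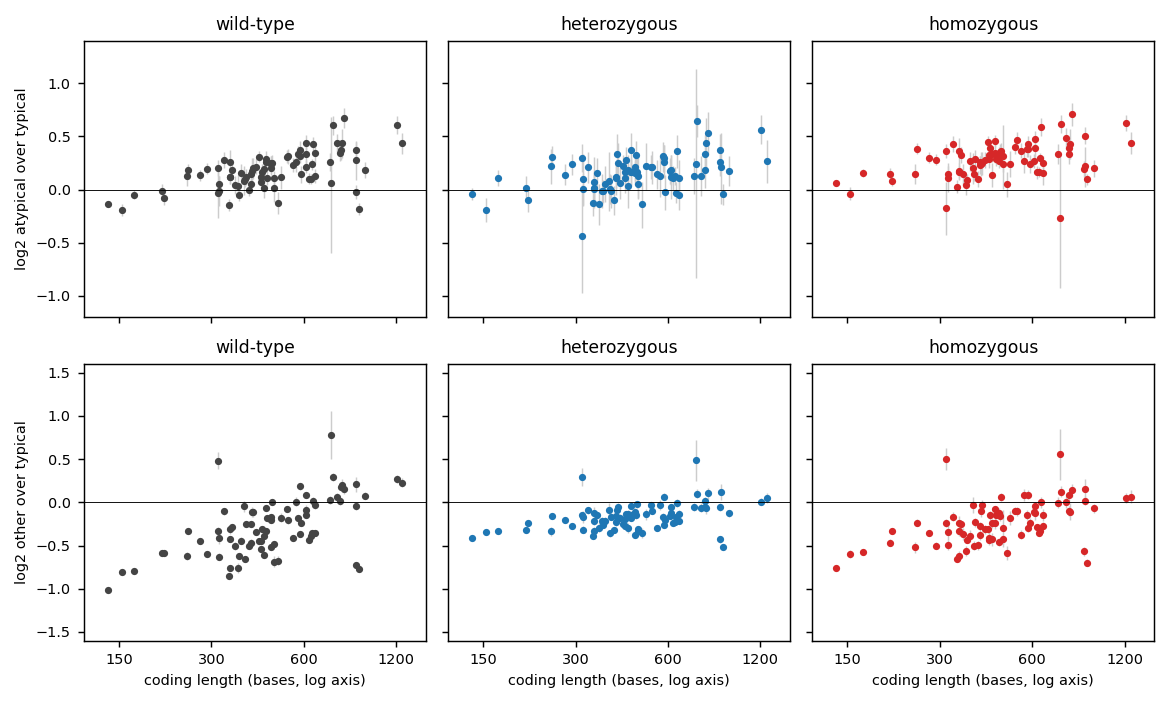
Log2 ratio of CPM to typical cells (y axis) of atypical (top) and other sorted cells (bottom) against coding length in bases (x axis, log scale), with 1 panel per library, 1 point per member (n = 81) and grey lines for the 95% counting intervals. In each panel longer members tend to sit higher, with rho from 0.42 to 0.58.

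The same lists of ratios were read for genes that work with the ribosome. *Rps27a*, made as a fusion with ubiquitin, is a member and stood at 2807, 1882 and 1866 CPM, with ratios of -0.58 in heterozygous and -0.59 in homozygous. The rule leaves out *Fau*, which encodes the small-subunit protein eS30 as a fusion. *Fau* stood at 2855, 1926 and 2074 CPM, with ratios of -0.57 and -0.46. *Fau* was near the median member in both mutants.

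Of 12 measured translation and TOP mRNA genes, 12 were below 0 in each mutant, with medians of -0.38 in heterozygous and -0.42 in homozygous, where 41.2% and 39% of all genes were below 0. By the size rule 2 and 6 of them were lower, against 3.83% and 3.26% of all genes. Among them *Gnb2l1*, which encodes the small-subunit scaffold RACK1, stood at 383, 242 and 254 CPM, with ratios of -0.66 and -0.59. *Eef1a1*, which delivers aminoacyl-tRNA, stood at 2079, 1518 and 1445 CPM, with ratios of -0.45 and -0.52. Mitochondrial ribosomal proteins build a separate ribosome. Their 68 measured genes had medians of 0.03 and 0.05, with 0 and 1 lower by at least 0.5 and 0 and 2 higher, the latter against 6.52% and 5.54% of all genes. The 21 measured ribosome biogenesis genes had medians of -0.03 and 0.04, with 2 and 0 of the 21 lower, against 3.83% and 3.26% of all genes. The 9 measured ribosomal protein pseudogene rows had medians of -0.37 in heterozygous and -0.04 in homozygous. By their medians, for which there is no test, the translation genes lay near the members, and the mitochondrial ribosomal and biogenesis genes lay nearer to the median of all genes.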

How the data were processed

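tdTomato+ cells were FAC-sorted and profiled by 10X Chromium 3′ chemistry (v2). Per the labels, the authors aligned reads to mm10 with Cell Ranger 2.0.1 and made UMI counts, which were deposited for filtered cells and for all barcodes. The authors' cell filters were not changed. The deposited fraction of ribosomal UMIs per cell was used as a check: across cells it had r = 0.9954 with the share computed here and lay a median of 1.96 percentage points higher. The neuronal table, deposited as natural log values after scaling each cell by its total, gave gene and cell names only, and the scaled and centered table was not used. Cell groups came from the deposited annotation.

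UMIs were summed per library and cell group and scaled to the total UMIs of the same cells (CPM). Typical cells gave 3670646, 10418228 and 6074494 UMIs in wild-type, heterozygous and homozygous, so intervals of abundant members are narrow, but they cover counting error only and say nothing of variation between mice. Intervals are exact conditional binomial. PCR duplicates were collapsed by UMI. Doublets were not called, and removing the 5% of cells with the most UMIs was tried instead. Copies were found as exact 50-base windows shared between GENCODE M21 transcripts (GRCm38, the mm10 assembly). RefSeq start sequences matched 61 of 82 members, and all 82 had a GENCODE record by gene ID. Coding length replaced the protein length planned, as no protein table was used here.

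Members named in the text have a mean of at least 100 CPM and are the 5 highest and lowest by each mutant over wild-type ratio, the 3 highest and lowest by the ratio between mutants and by each cell-group ratio (median of the 3 libraries), and the 5 most abundant, with paralog pairs, stalk genes, *Rpsa* and fusion genes at any level. Other named genes (*Rpl13a*, *Rpl6l*, *Gnb2l1*, *Eef1a1* and the copies) were chosen after their values were seen. A few genes that this rule names are not reported here, though all 82 members enter the sums, medians and counts. The members and lists were chosen with earlier results of these data known. Alternatives were other denominators, edgeR 4.0.16 and DESeq2 1.42.0 scaling factors on the counts (factors only, no test), raw UMIs per cell, thinning, ambient subtraction, other filters, and added copies. The ratio code was tested on simulated data. Python 3.11.15 with numpy 2.4.6, scipy 1.17.1 and pandas 2.3.3, and R 4.3.3, were used.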

Additional observations from a re-analysis of the deposited data

Results flagged for a closer look

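For a few members the ratio between cell groups had opposite signs in different libraries, with 95% counting intervals that lay wholly on either side of 0. The difference was not tested, since each genotype had 1 library.

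In atypical over typical cells, *Rpl41* had a log2 ratio of -0.13 (-0.17 to -0.10) in wild-type and 0.059 (0.03 to 0.09) in homozygous. *Rps2* stood at -0.18 (-0.24 to -0.12) in wild-type and 0.10 (0.04 to 0.15) in homozygous. *Rps29* stood at -0.050 (-0.09 to -0.01) in wild-type, 0.11 (0.03 to 0.18) in heterozygous and 0.16 (0.12 to 0.20) in homozygous. Only members named in the text were examined for such a change of sign.

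In other over typical cells, *Rplp0* stood at 0.076 (0.04 to 0.11) in wild-type, -0.12 (-0.16 to -0.08) in heterozygous and -0.070 (-0.12 to -0.02) in homozygous.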

How the results depend on the processing

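No paired analysis was possible because each genotype had 1 library and the labels carry no replicate numbers, and no replicate could be left out. Ratios are log2, and the cause of each change below was not tested. In typical cells the summed ratio of homozygous over wild-type was -0.32 without mitochondrial genes in the total, -0.41 per UMI of the neuronal table's genes, -0.39 by edgeR TMM, -0.37 by DESeq2 size factors, -0.77 as raw UMIs per cell, and -0.35 after thinning, after subtracting empty droplets and without the top 5% of cells. In the same order, heterozygous over wild-type was -0.37, -0.47, -0.46, -0.44 and -0.54, and -0.43 after subtracting empty droplets. Homozygous over heterozygous was 0.047, 0.063, 0.079, 0.075 and -0.24, then 0.10 after thinning, 0.079 after subtraction and 0.10 without the top cells. The median member of homozygous over wild-type was -0.47 per neuronal-table UMI and -0.83 as raw UMIs per cell. For heterozygous over wild-type it was -0.38 without mitochondrial genes and -0.55 as raw UMIs per cell, and for homozygous over heterozygous it turned to -0.0098 and -0.29. Members lower by at least 0.5 numbered 71 in homozygous as raw UMIs per cell, 22 in heterozygous without mitochondrial genes, and between the mutants 3 as raw UMIs per cell, where 12.1% of all genes were, and 0 with copies added. Denominators, scaling factors and raw UMIs per cell (5 settings) shift every gene alike, so the distance between the median member and the median of all genes cannot change under them. Under thinning, subtraction and removal of the top cells it was 0.48 to 0.50 in homozygous and 0.49 to 0.53 in heterozygous, with members below. Atypical over typical was 0.12 in wild-type without mitochondrial genes, thinned and as the mean share of cells, 0.18 in heterozygous without mitochondrial genes, and 0.27, 0.23 and 0.24 in homozygous under the same 3 settings. Other over typical under these settings was -0.48, -0.38 and -0.38 in wild-type, -0.27, -0.18 and -0.18 in heterozygous, and -0.42, -0.27 and -0.27 in homozygous. A filter at 100 CPM in place of 20 CPM left the counts within 1.5 times their value. With no filter they could not change, since all 82 members passed 20 CPM. Depth is lowest for *Rpl7l1*, with 135 to 408 UMIs per library. Variation between mice was not measured.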
